A study of Homo sapiens with 2 samples.

Results

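The 10 mRNAs described here encode the cytosolic elongation factors EEF1A1, EEF1B2, EEF1D, EEF1G and EEF2 and 5 further abundant proteins of the translation machinery or of cell growth, TPT1, PABPC1, NACA, BTF3 and GNB2L1. They were chosen by gene symbol, as elongation factors and abundant mRNAs of the 5-prime TOP class described below. Each of the 10 symbols matched 1 of the 23608 gene rows of the deposited table. All of them were measured in SW13, an established human cell line derived from an adrenal adenocarcinoma. The cells had been transfected with Add2-Mhrt779 and Add2-Hotair, plasmids for murine non-coding RNAs, and were harvested 48 hours later. For both samples the labels give 10000000 cells transfected, 5 µg of plasmid, 80% confluence and 10% serum. One assay is sequencing of total RNA, and the other is ribosome profiling, in which nuclease leaves the RNA fragments that ribosomes cover. The 2 libraries are called total RNA and ribosome fragments below. Both assays used transfected cells, each assay had 1 library, and no untransfected sample or second culture was analysed here. No value below therefore has a replicate error, and no difference below was tested by its spread between samples.

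During elongation, eEF1A carries each aminoacyl-tRNA to the ribosome, the eEF1B complex recharges eEF1A with GTP, and eEF2 moves the ribosome to the next codon. Most of these mRNAs belong to the 5-prime TOP class, whose transcripts begin with a cytidine and an unbroken run of pyrimidines. Through this start, growth signalling by mTOR and the binding protein LARP1 hold the class back or release it for translation together with the mRNAs of ribosomal proteins.

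The transcript starts are shown because they are what gives this class its name. RefSeq start sequences (GRCh38.p14) matched 8 of the 10 genes. EEF1D and PABPC1 were not matched. Each line runs from 10 bases before the annotated start through the first 20 transcribed bases, 5′ to 3′ on the transcript strand. Capitals mark a C followed directly by at least 4 bases that are C or T, with that C from 5 bases before to 5 bases after the annotated start.

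EEF1A1 (chr6:73521013-73521042, minus strand): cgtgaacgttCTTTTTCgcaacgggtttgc
EEF2 (chr19:3985444-3985473, minus strand): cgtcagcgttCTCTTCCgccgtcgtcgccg
EEF1B2 (chr2:206159885-206159914, plus strand): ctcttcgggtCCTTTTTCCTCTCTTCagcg
EEF1G (chr11:62573872-62573901, minus strand): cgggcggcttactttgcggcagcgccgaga
TPT1 (chr13:45341164-45341193, minus strand): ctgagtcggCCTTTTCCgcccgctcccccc
NACA (chr12:56725280-56725309, minus strand): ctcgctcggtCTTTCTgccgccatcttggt
BTF3 (chr5:73498432-73498461, plus strand): cttccggCCTCCCTTTagctgccatcttgc
GNB2L1, now named RACK1 (chr5:181243887-181243916, minus strand): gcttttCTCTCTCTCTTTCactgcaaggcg

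Such a pyrimidine start was found in 7 of the 8 matched genes, and EEF1G had none by this rule. EEF1B2 has a second annotated start upstream, at chr2:206159599-206159628, without one. Over all 27305 genes of the promoter table the share was 25.2%, over 66 matched cytosolic ribosomal protein genes it was 84.8%, and over 1899 matched tested protein-coding genes it was 32.2%. The set was chosen as mRNAs of this class, so its high share follows in part from the choice. The search used the transcript strand only, since the tract is a feature of the transcript, and a match is a description of letters at an annotated start. The tract was 6 bases long in NACA, 7 in EEF1A1 and EEF2 and 16 in EEF1B2.

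To determine how these mRNAs divided between total RNA and ribosome-covered RNA, their FPKM values in the 2 libraries were compared. FPKM, which the authors computed, is by definition a fragment number divided by the transcript's length and by the library's mapped fragments. The number of reads behind it is unknown, and so is the exact library scaling that the authors used. The ratio used here is log2((FPKM in ribosome fragments + 1)/(FPKM in total RNA + 1)) minus its median over tested genes. Tested genes are the 2734 rows whose 2 FPKM values average at least 10 and whose status is usable, of which 2245 are protein-coding, and all 10 mRNAs are among them. That median was 0.39 before centring, so a gene with equal deposited values in both libraries lies 1.31-fold below the median gene. The ratio was not corrected for the share of each transcript that is coding. Whether that share adds to the differences between mRNAs below, those of TPT1 and PABPC1 included, was not tested.

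All 10 were abundant mRNAs, which follows in part from how the set was chosen. In total RNA they had from 54.6 to 566 FPKM and took ranks from 27 to 336 among the 2245 tested protein-coding genes. Among ribosome fragments they had from 42.96 to 506 FPKM and took ranks from 52 to 631. Of the FPKM sum outside small RNA genes, the 10 together held 0.918% in total RNA and 0.759% among ribosome fragments. As deposited, 5 of them were higher among ribosome fragments and 5 were lower. The mRNAs fell into a set of 8 whose 2 values lay within 1.65-fold of each other and a pair, TPT1 and PABPC1, whose value among ribosome fragments was 3.81-fold and 4.33-fold lower.

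**Figure D1:**
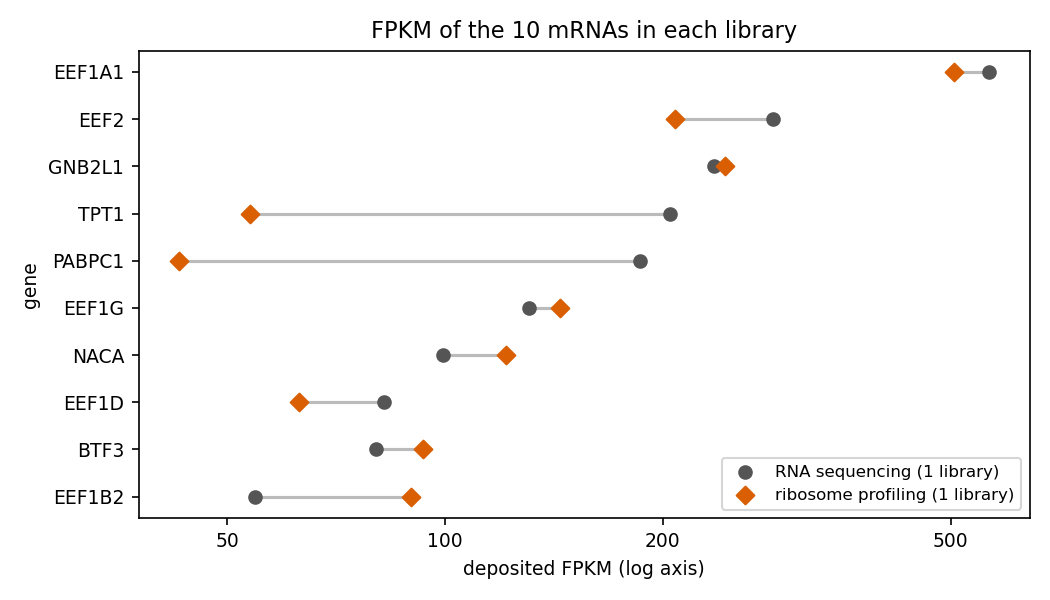
Deposited FPKM (log axis) of the 10 mRNAs, with circles for the RNA sequencing library and diamonds for the ribosome profiling library. The 2 points lie close together for 8 mRNAs, while TPT1 has 205.0 and 53.8 FPKM and PABPC1 has 186 and 42.96 FPKM.

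EEF1A1, the aminoacyl-tRNA carrier, was the most abundant of the 10 in both libraries. It had 566 FPKM in total RNA against 506 FPKM among ribosome fragments, which is 1.46-fold below the median gene. Its rank among tested protein-coding genes was 27 in total RNA and 52 among ribosome fragments. In the authors' deposited table its log2 ratio was -0.16 ± 1.33 (model standard error). The gene lies on chromosome 6 from 74225473 to 74230755 in hg19. EEF1A2, its tissue-restricted paralog known from muscle and neurons, had 76.5 and 83.9 FPKM, 1.20-fold below the median gene. EEF1A1 was thus 7.39-fold above EEF1A2 in FPKM of total RNA and 6.03-fold above it in FPKM of ribosome fragments.

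EEF2, the translocase, had 284 FPKM in total RNA against 208 FPKM among ribosome fragments, 1.78-fold below the median gene. It is the lowest ratio among the 5 elongation factors. The log2 ratio in the authors' deposited table was -0.45 ± 1.25 (model standard error). EEF2 lies on chromosome 19 from 3976054 to 3985461 in hg19. The log2 ratio of EEF2 minus that of EEF1A1 in the authors' deposited table was -0.29 ± 1.82, with 95% limits of -3.86 and 3.28. The interval assumes independent errors and covers the authors' model error only, as do the other intervals below, which are not adjusted for the 23 pairs computed.

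The 3 subunits of eEF1B, which act in a single complex, did not share a direction as deposited. EEF1B2, which carries the nucleotide exchange activity, had 54.6 FPKM in total RNA against 89.9 among ribosome fragments. It was the only one of the 10 mRNAs above the median gene, by 1.25-fold. EEF1D, a second exchange subunit, had 82.5 and 62.9 FPKM, 1.71-fold below. EEF1G, a structural subunit, had 131 and 144 FPKM, 1.19-fold below.

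The order of the 3 subunits therefore differed between libraries. In total RNA it was EEF1G, EEF1D, EEF1B2, and among ribosome fragments it was EEF1G, EEF1B2, EEF1D. The level of EEF1G over EEF1B2 was 2.40-fold in FPKM of total RNA and 1.61-fold in FPKM of ribosome fragments. EEF1A1 stood above each of them in both libraries, by 4.33-fold to 10.4-fold in total RNA and by 3.51-fold to 8.05-fold among ribosome fragments. For EEF1B2 minus EEF1D the log2 ratios in the authors' deposited table differed by 1.11, with a 95% interval from -0.74 to 2.96. From the authors' deposited table, the interval was -2.04 to 3.19 for EEF1B2 minus EEF1G and -2.67 to 1.60 for EEF1D minus EEF1G, so that each interval within the complex included 0. In hg19, EEF1B2 lies on chromosome 2 from 207024318 to 207027653, EEF1D on chromosome 8 from 144661867 to 144679845 and EEF1G on chromosome 11 from 62327073 to 62341460.

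NACA and BTF3 encode the alpha and beta subunits of the nascent polypeptide-associated complex, which meets new chains as they leave the ribosome. NACA had 99.5 FPKM in total RNA against 122 among ribosome fragments, 1.07-fold below the median gene. BTF3 had 80.4 and 93.3 FPKM, 1.13-fold below. The level of NACA over BTF3 was 1.24-fold in FPKM of total RNA and 1.30-fold in FPKM of ribosome fragments, so the 2 subunits kept nearly the same proportion in both libraries. The log2 ratio of BTF3 minus that of NACA in the authors' deposited table was -0.074, with a 95% interval from -2.23 to 2.09. NACA lies on chromosome 12 from 57106211 to 57119326 and BTF3 on chromosome 5 from 72794250 to 72801448 in hg19.

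BTF3L4, a paralog of BTF3, was far higher among ribosome fragments than in total RNA. It had 4.45 FPKM in total RNA against 64.5 FPKM among ribosome fragments, 9.18-fold above the median gene. The authors' deposited table called it, with a log2 ratio of 3.86 ± 0.64 (model standard error) and q = 1.79e-06. The log2 ratio of BTF3L4 minus that of BTF3 in the authors' deposited table was 3.64, with a 95% interval from 1.51 to 5.78. This pair was not among those set in advance. BTF3L4 reached a mean of at least 10 FPKM only through its value among ribosome fragments, and its fold rests on a low value in total RNA. In total RNA BTF3 was 18.1-fold above BTF3L4, and among ribosome fragments 1.45-fold above it. No coding window of 28 bases is shared by BTF3 and BTF3L4 in the GENCODE release 29 transcripts. NACA2, an intronless paralog that shares 23.5% of the 28-base coding windows of NACA, had 49.7 and 110 FPKM, 1.66-fold above the median gene. The pseudogene row NACAP1 had 34.3 and 50.02 FPKM, and BTF3P11 had 11.4 and 9.86 FPKM.

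GNB2L1, now called RACK1, is a scaffold protein that sits on the small ribosomal subunit. It had 236 FPKM in total RNA against 244 among ribosome fragments, 1.27-fold below the median gene. Its deposited values were the most alike of the 10, at a log2 ratio of 0.049 ± 1.05 (model standard error) in the authors' deposited table. The gene lies on chromosome 5 from 180663928 to 180670906 in hg19.

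TPT1 and PABPC1 were far lower among ribosome fragments than in total RNA. TPT1 encodes the translationally controlled tumour protein, an abundant growth-associated protein. It had 205.0 FPKM in total RNA, at rank 102, and 53.8 among ribosome fragments, at rank 495, which is 4.93-fold below the median gene. Of the tested protein-coding genes, 2.90% had a lower ratio than TPT1. PABPC1 encodes the major cytoplasmic poly(A)-binding protein, whose mRNA is known to carry an A-rich stretch that the protein itself binds. It had 186 FPKM in total RNA, at rank 113, and 42.96 among ribosome fragments, at rank 631, which is 5.57-fold below the median gene. Of the tested protein-coding genes, 2.05% had a lower ratio than PABPC1. TPT1 lies on chromosome 13 from 45911304 to 45915297 and PABPC1 on chromosome 8 from 101715144 to 101734315 in hg19.

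Neither of these was called in the authors' deposited table, which called none of the 10, with q-values from 0.311 to 0.991. That table called 1.3% of its 4849 rows with the status OK. The log2 ratio of TPT1 in the authors' deposited table was -1.93 ± 0.93 (model standard error), p = 0.0375 and q = 0.311. That of PABPC1 in the authors' deposited table was -2.11 ± 1.09 (model standard error), p = 0.0529 and q = 0.362. Set against GNB2L1, which had a like level in total RNA, TPT1 differed in the log2 ratio of the authors' deposited table by -1.98, with a 95% interval from -4.72 to 0.76. The authors' deposited table gives -2.16 for PABPC1 minus GNB2L1, with a 95% interval from -5.13 to 0.80. These 2 pairs were chosen after the values were seen, and both intervals include 0.

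**Figure D2:**
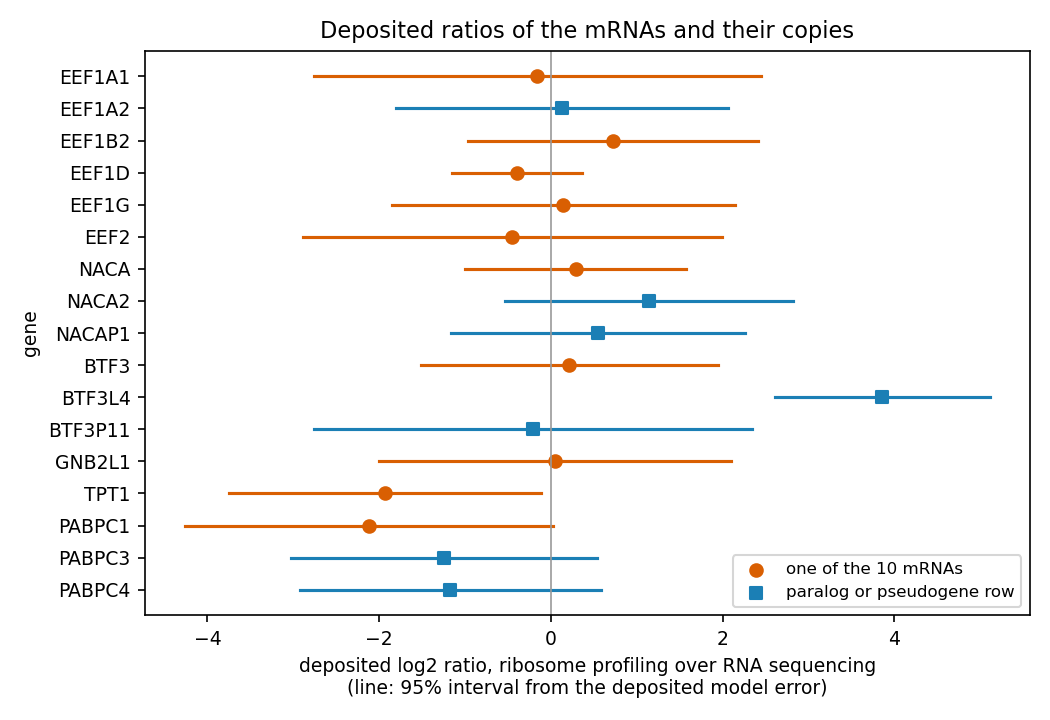
Log2 of ribosome profiling over RNA sequencing (horizontal axis) in the authors' deposited table, with its 95% interval from the deposited model error, for the 10 mRNAs (circles) and rows of their paralogs and pseudogenes (squares). TPT1 at -1.93 and PABPC1 at -2.11 are the lowest of the 10, and BTF3L4 at 3.86 stands on the other side.

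Counted over the 10 mRNAs, 2 lay 2-fold or more below the median gene and none that far above. In the whole set of 2734 tested rows, 19.7% lay 2-fold or more below and 13.1% lay 2-fold or more above. In tested protein-coding rows these shares were 14.4% and 10%. The count of 2 in 10 is thus near the background. Both TPT1 and PABPC1 were also at least 4-fold below, as were 4.01% of tested protein-coding rows. With a filter on mean FPKM of at least 30 the count 2-fold or more below was 3, with EEF2 added at a log2 ratio of -1.01.

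The median log2 ratio of the 10 mRNAs was -0.44 and that of the 5 elongation factors -0.55, against 0.040 over tested protein-coding rows, and 9 of the 10 lay below the median gene, against 48.4% of tested protein-coding rows. How far these values lie from 0, and how many lie below it, depends on where the centre is set, which shifts all ratios alike. The medians of the 10 and of the cytosolic ribosomal protein genes were -0.44 and 0.022. With no centring they were -0.056 and 0.41. With no filter on mean FPKM, which brings in many low rows, they were 0.23 and 0.70. The median of the 10 was below that of the ribosomal protein genes each time. These settings shift both medians almost alike by construction, so the unchanged order is no measure of stability. Removing the filter shifted all 10 alike. EEF1A1 had log2 ratios of 0.12 without it and -0.55 with it, EEF1D -0.10 and -0.78, and EEF2 -0.16 and -0.83. The distance of TPT1 and PABPC1 from the other 8 does not involve the centre. The other 8 had log2 ratios from -0.83 to 0.32, and the 2 had -2.30 and -2.48.

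**Figure D3:**
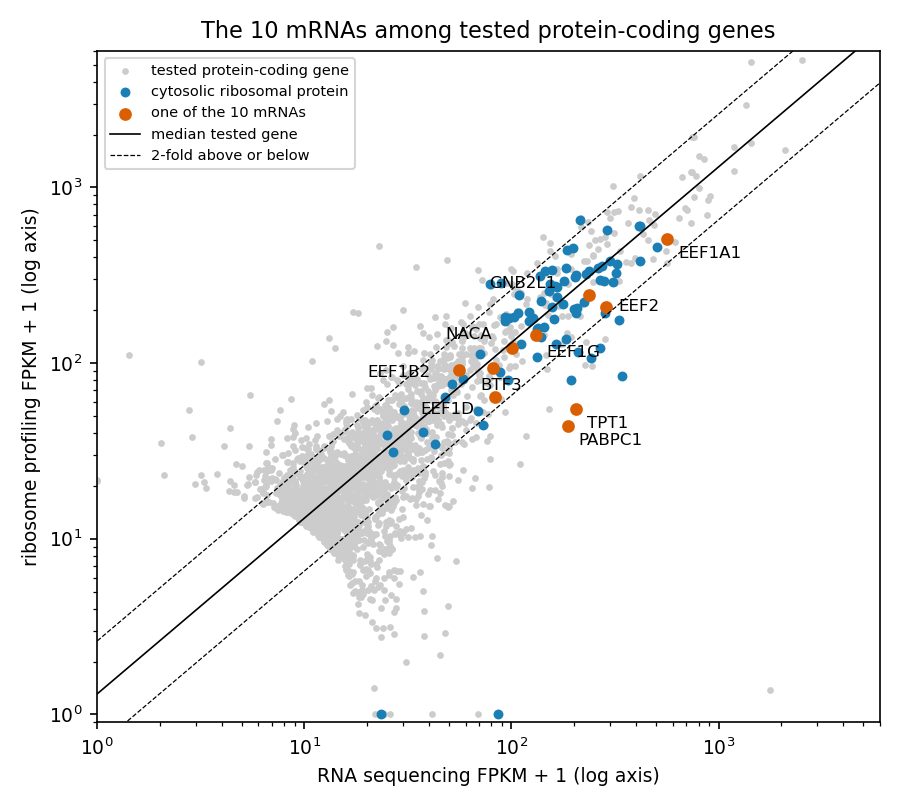
RNA sequencing FPKM + 1 against ribosome profiling FPKM + 1 (both log axes) for tested protein-coding genes (grey), cytosolic ribosomal proteins (blue) and the 10 mRNAs (orange), with the median tested gene as a solid line and 2-fold above and below it dashed. TPT1 and PABPC1 lie below the lower dashed line, and the other 8 lie between the dashed lines.

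The genes nearest to 4 of the mRNAs in the plane of both log2(FPKM + 1) values were then found, over these 2 libraries. For TPT1 the nearest of all tested rows was PABPC1, at a distance of 0.35, followed by SLC25A6 and HIST2H2BC. For PABPC1 the nearest row was LINC00324, followed by TPT1 and SLC25A6. SLC25A6, an adenine nucleotide carrier of mitochondria, had 150 and 54.0 FPKM. For EEF2 the nearest row was the ribosomal protein gene RPL39, with 283 and 191 FPKM, and for EEF1A1 it was the histone gene HIST2H3D, with 616 and 491 FPKM. The other nearest rows of EEF1A1 and EEF2 were small RNA genes.

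Other poly(A)-binding proteins of the cytoplasm were also below the median gene. PABPC3, an intronless gene that shares 27.3% of the 28-base coding windows of PABPC1, had 45.1 FPKM in total RNA against 19.0 among ribosome fragments, 3.01-fold below the median gene. PABPC4, a paralog that shares no such window with PABPC1, had 25.3 and 11.3 FPKM, 2.81-fold below. In the authors' deposited table their log2 ratios were -1.24 and -1.17 with standard errors of 0.91 and 0.89, and neither was called. Of the partners, the scaffold EIF4G1, which joins the protein to the cap-binding factor, had 35.5 and 36.5 FPKM, EIF4G2 had 35.9 and 30.1 FPKM, and the repressor PAIP2 had 10.4 and 16.2 FPKM. Of the 11 family and partner genes listed, 5 were tested. Of these, 2 lay 2-fold or more below and none that far above, against 19.7% and 13.1% of all tested rows. Their median log2 ratio was -0.64. With no filter on mean FPKM that median was 0.12.

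Near-identical copies limit how firmly reads can be placed on these genes, so the coding sequence each gene shares with others was measured on GENCODE release 29 transcripts (GRCh38). Of the 28-base windows of the annotated principal coding sequence, 100% in EEF1G, 98.97% in EEF1A1 and 87.7% in EEF1B2 occurred also in a transcript of another gene. The share was 71.7% in BTF3, 57.5% in TPT1, 57.3% in NACA, 53.3% in PABPC1, 22.6% in the long form of EEF1D, 4.004% in GNB2L1 and 0% in EEF2. With windows of 50 bases, the read length, it was 100% in EEF1G, 94.2% in EEF1A1, 20.7% in PABPC1 and 13.9% in TPT1. EEF1A1 shared windows with 44 other genes, led by EEF1A1P5 at 91.8% and EEF1A1P6 at 85.1%, neither of which has a row in the deposited table.

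These shares depended on the window length and on which other genes were counted. From 28 to 50 bases the share fell from 57.5% to 13.9% in TPT1, from 53.3% to 20.7% in PABPC1 and from 57.3% to 31.2% in NACA. Counting only other genes that have a row in the deposited table, the share of 28-base windows was 28.2% in PABPC1, the highest of the 10, 23.5% in NACA and 11.0% in TPT1. By the same count it was 8.72% in EEF1G, 5.23% in BTF3, 1.46% in EEF1D and 0% in EEF1A1, EEF1B2, EEF2 and GNB2L1. Summing each gene with its pseudogene rows in the table gave log2 ratios of -2.46 for PABPC1, -0.032 for NACA and -0.22 for BTF3. For PABPC1 this added only PABPC1P2, with 2.97 and 1.16 FPKM, and not PABPC3, while TPT1 had no such row to add. For NACA it added NACAP1, which shared 0% of the 28-base windows of NACA, and not NACA2, which shared 23.5%. How the authors placed reads that match several genes is not given in the sources used here, and the part of shared reads in these ratios was not tested.

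**Figure D4:**
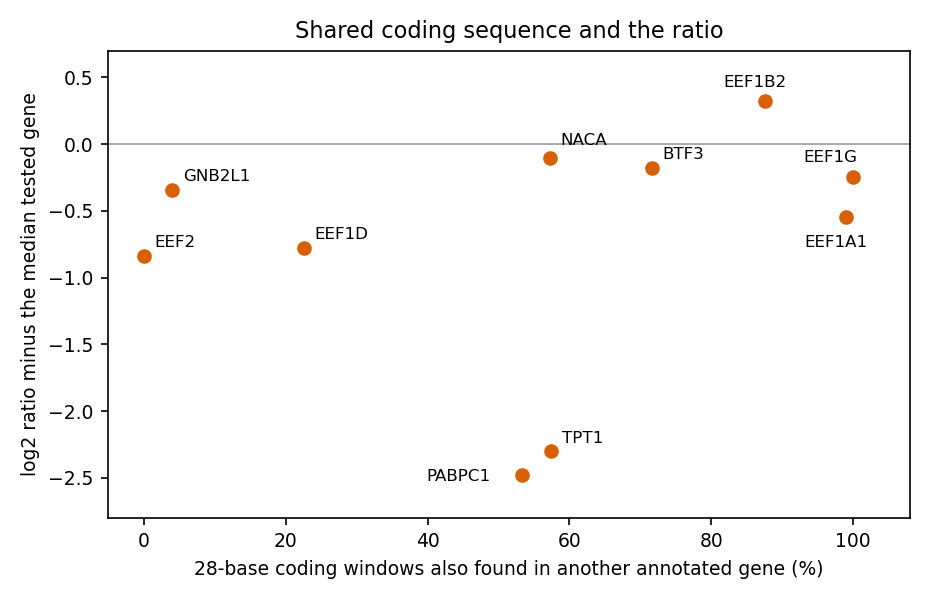
Share of 28-base coding windows found also in another annotated gene (percent, horizontal) against the log2 ratio of each of the 10 mRNAs minus the median tested gene (vertical). PABPC1 lies at 53.3%, TPT1 at 57.5%, NACA at 57.3% and EEF1A1 at 98.97%, and with windows of 50 bases these shares are 20.7%, 13.9%, 31.2% and 94.2%.

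Several of these genes host small nucleolar RNAs in their introns, and the deposited table lists such rows in the same loci. In the EEF2 locus SNORD37 had 852 FPKM in total RNA against 10629 among ribosome fragments. In the GNB2L1 locus SNORD95 had 3023 and 7860 FPKM, and SNORD96A was listed at 0 in total RNA and had 974 FPKM among ribosome fragments. In the EEF1B2 locus SNORA41 had 155 and 483 FPKM, and SNORD51 had 700.4 FPKM in total RNA and was listed at 0 among ribosome fragments. In the TPT1 locus SNORA31 had 483 and 502 FPKM. As deposited, SNORD37 was 12.5-fold higher among ribosome fragments, while its host EEF2 was lower. SNORA31 was 1.04-fold higher as deposited and lay below the median gene, with a log2 ratio of -0.33. Rows this short reach large FPKM from few fragments, and their values are uncertain.

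Other genes of the elongation cycle were mostly too low to test. Of 16 other elongation and hypusine genes, 5 were tested and none was 2-fold from the median gene, with a median log2 ratio of -0.13. EIF5A, the hypusine-bearing factor that helps ribosomes through difficult sequences, had 184 FPKM in total RNA against 147 among ribosome fragments, 1.64-fold below. The row of EEF1E1, a protein of the aminoacyl-tRNA synthetase complex, had 16.9 and 43.7 FPKM, 1.90-fold above. Of 5 mitochondrial elongation factors only TUFM was tested, with 37.4 and 31.01 FPKM. Of 8 termination and recycling factors ETF1, with 13.6 and 10.7 FPKM, and GSPT1, with 7.50 and 13.9 FPKM, were tested.

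Of 11 genes of the nascent chain complex family, the signal recognition particle and methionine aminopeptidases, 7 were tested. BTF3L4 was at least 2-fold above and SRP9 at least 2-fold below, and the median log2 ratio was 0.48. BTF3L4 entered this count and median only through its value among ribosome fragments. Over all tested rows, 13.1% lay that far above and 19.7% that far below. SRP9, with 25.3 FPKM in total RNA against 11.6 among ribosome fragments, and SRP14, with 44.4 and 92.6 FPKM, encode 2 proteins that bind the particle's RNA as a pair, and they lay on opposite sides of the median gene.

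Other 5-prime TOP mRNAs were set beside the 10. The list of 23 such mRNAs includes PABPC4 and EEF1E1 and overlaps the ribosomal protein list. Of its 22 tested members, 1 was at least 2-fold above and 3 at least 2-fold below, with a median log2 ratio of -0.067. Over tested protein-coding rows, 10% lay that far above and 14.4% that far below. The nucleolar chaperone NPM1 had 231 FPKM in total RNA against 381 among ribosome fragments. LGALS1, a galectin, had 415 and 1155 FPKM and was 2.12-fold above the median gene. HNRNPA1, a splicing regulator, had 52.9 and 6.47 FPKM and was 9.44-fold below, with q = 0.102 in the authors' deposited table. Of 79 tested cytosolic ribosomal protein genes, 3 were at least 2-fold above and 9 at least 2-fold below, beside the same 10% and 14.4%. Their median log2 ratio was 0.022. RPS13, the highest ratio, had 77.9 and 280.0 FPKM, 2.72-fold above, and RPL21, the lowest, had 85.1 and 0.0066 FPKM. RPL37A had 417 and 603 FPKM and RPL8 had 411 and 602 FPKM, 1.10-fold and 1.12-fold above the median gene. RPL35 had 504 and 458 FPKM, 1.44-fold below the median gene. With no filter on mean FPKM the medians were 0.58 for the other 5-prime TOP mRNAs and 0.70 for the ribosomal protein genes.

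Split by the pyrimidine start itself, 612 tested protein-coding genes with it had a median log2 ratio of -0.0094 and 1287 without it a median of 0.062. At least 2-fold below lay 14.4% of the former and 13.2% of the latter. The median level in total RNA was 22.7 FPKM with the start and 17.1 FPKM without it. Among the 7 of the 10 mRNAs with a tract, its length and the ratio did not run in one order. The log2 ratio was 0.32 in EEF1B2 (16 bases), -0.34 in GNB2L1 (13), -0.18 in BTF3 (9) and -2.30 in TPT1 (8). It was -0.55 in EEF1A1 and -0.83 in EEF2 (7 each) and -0.10 in NACA (6). PABPC1, the lowest ratio, had no matched start.

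**Figure D5:**
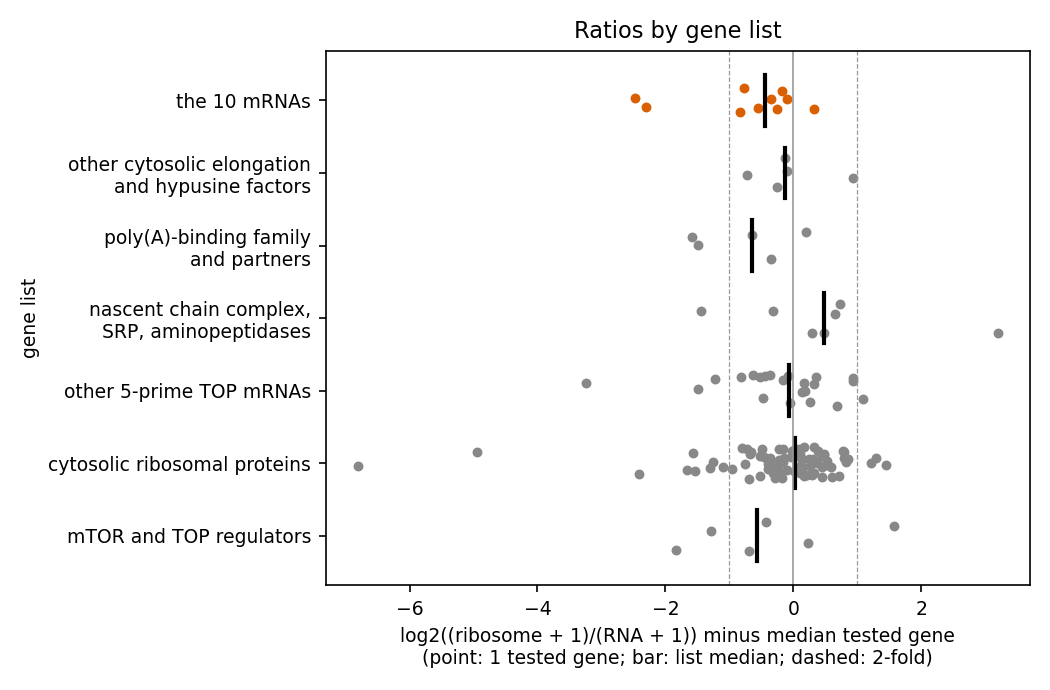
Log2 ratio minus the median tested gene for each tested gene (points) of the 10 mRNAs and 6 comparison lists, with bars at list medians and dashed lines at 2-fold. The median is -0.44 for the 10 mRNAs, 0.022 for cytosolic ribosomal proteins and -0.067 for other 5-prime TOP mRNAs.

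Of the 21 genes of mTOR signalling and TOP control, 6 were tested, with 1 at least 2-fold above, 2 at least 2-fold below and a median log2 ratio of -0.56. With a filter on mean FPKM of at least 30, which tests fewer genes, that median was 0.40. The shares over all tested rows were 13.1% above and 19.7% below. LARP1, the TOP-binding repressor, had 17.3 FPKM in total RNA against 8.80 among ribosome fragments, with a log2 ratio of -1.29. EIF4EBP1, the cap-binding repressor that mTOR inactivates, had 16.02 and 5.26 FPKM, 3.56-fold below the median gene, with q = 0.563 in the authors' deposited table. LARP1 and EIF4EBP1, the 2 counted below, reached a mean of at least 10 FPKM only through total RNA. The filter therefore favours low ratios for them. SSB, the La protein, an RNA-binding protein also known to bind TOP starts, had 16.02 and 65.6 FPKM, 2.99-fold above. CNBP had 32.5 and 31.5 FPKM. LARP1 was named after its values were seen.

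The cell identity was read from marker genes. The 7 adrenal cortex markers, steroid enzymes and their regulators, and the 4 adrenal medulla markers were all listed at 0 in both libraries. SMARCA4, a chromatin remodeller that SW13 is known to lack as protein, had 3.99 FPKM in total RNA against 0.677 among ribosome fragments. SMARCA2, its paralog, had 1.72 and 1.75 FPKM. The authors' deposited table marks both rows as not tested. VIM, an intermediate filament gene absent from some SW13 sublines, had 490 and 707 FPKM.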

How the data were processed

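Total RNA sequencing and ribosome profiling of transfected SW13 cells gave 1 library each, read from both ends at 50 bases per the labels' protocols. The authors deposited 1 table with an FPKM value per library and gene row, and with their log2 ratio, test statistic, p-value and q-value. Builds hg19 and mm10 and the tools bedtools 2.16.1, SAMtools 0.1.18, Bowtie2 2.0.0.6 and TopHat2 2.0.8b are listed, without their use, per the submitters' processing notes. What program made the table is not given in the sources used here. Depth cannot be read from FPKM, so no counting interval is given.

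A two-sided normal p of the authors' statistic lay within 0.001 of their p-value in 100% of 4542 rows, so the standard error was taken as the size of the deposited log2 ratio over that of the statistic. Ratios used a pseudocount of 1 and were centred on tested rows, in Python 3.11.15 with pandas 2.3.3. The computation of the ratio was checked on simulated data with set changes and little noise, which tests the arithmetic and not the deposited libraries. Starts of loci were raised by 1 base. Gene classes came from RefSeq, transcripts from GENCODE.

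Members and lists were chosen with earlier results of these data known. Named genes were the 10, their copies and paralogs with a value above 0, in each list the 3 tested genes of highest mean FPKM and the highest and lowest ratio, and the 3 rows nearest to EEF1A1, EEF2, TPT1 and PABPC1. With 1 library per assay no p-value was computed. Pseudocounts, filters, status, centring, library scale and summed copies were varied.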

Additional observations from a re-analysis of the deposited data

How the results depend on the processing

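Over 10 alternative settings and 29 results, 269 of 281 values moved by less than the tolerance, which was the authors' model error for single genes and pairs and 1.5-fold for list medians, and 12 moved further. Pair differences cannot move when only the filter, status or centre changes, because the centre cancels. The model errors of the 10 mRNAs ran from 0.39 to 1.33, so a ratio could change sign within its tolerance. The tally is therefore a weak measure of stability. No value at least 2-fold from the median gene changed sign. The ratio of TPT1 ranged from -2.48 to -1.63 and that of PABPC1 from -2.65 to -1.81. The count of the 10 mRNAs at least 2-fold below the median gene was 2 or 3, and that at least 2-fold above was 0 throughout. Of the single mRNAs, EEF1D moved further than its model error under 4 settings, from -0.78 to -0.23 with a mean FPKM of at least 1, -0.10 with no filter, -0.39 with no centring and -0.37 with equal FPKM sums, and NACA under 1, to 0.57 with no filter. EEF1D has the smallest model error of the 10, at 0.39. The median of the 10 went from -0.44 to 0.23 with no filter on mean FPKM. With no filter the list medians moved to 0.70 for mitochondrial elongation factors, 0.12 for the poly(A)-binding family and partners, 0.58 for other 5-prime TOP mRNAs and 0.70 for cytosolic ribosomal proteins. With a mean FPKM of at least 1 mitochondrial elongation factors had 0.57, and with one of at least 30 the mTOR and TOP regulators had 0.40, where fewer genes were tested. The centre subtracted was 0.39 at a filter of 10, -0.16 at 1, -0.28 with no filter and 0.56 at 30, which by construction shifts all ratios alike. The sign of the ratio changed under 4 settings each for EEF1G, NACA, BTF3 and GNB2L1, under 1 for EEF1A1, and under none for EEF1B2, EEF1D, EEF2, TPT1 and PABPC1. With fewer than 2 libraries per assay no library could be left out. No paired analysis was possible because each assay has 1 library and the comparison comes from no test.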
